A study of Mus musculus with 3 samples.

Results

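The loci described here are the nuclear transfer RNA (tRNA) genes of the mouse: 408 of the 430 genes of biotype tRNA in a RefSeq gene table of the build mm10 (GRCm38.p6), that is, all those on chromosomes 1 to 19 or X. The other 22 are mitochondrial and were left out. Each gene was extended by 1 kb on each side, which gave loci with a median width of 2072 bases around genes of 70 to 107 bases. The rule for a member uses the annotation and no peak signal. They were set against the peak lists of 1 study of the otocyst, the epithelial vesicle that forms the inner ear, taken from wild-type mouse embryos of stage E10.5. Otocysts were pooled (34 in all), separated into cells with Accutase and divided into 3 samples. CUT&Tag, in which an antibody guides the transposase Tn5 to DNA near a bound protein, was then run on 1 sample for CHD7, on another for SOX2 and on the last without any primary antibody. There was 1 library of each, so no value below has a replicate, and the library without primary antibody was not analysed here.

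Transfer RNAs carry amino acids to the ribosome and read the codons of messenger RNA through a triplet called the anticodon. Their genes are transcribed by RNA polymerase III from promoters that lie inside the gene: the factor TFIIIC binds an A box and a B box in the transcribed sequence and brings in TFIIIB, which recruits the polymerase. CHD7 moves nucleosomes with energy from ATP, and its loss of function in people causes CHARGE syndrome, in which the inner ear is malformed. SOX2 is a transcription factor with an HMG box, without which the sensory patches of the ear do not form.

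The sequences of 4 tRNA genes lay whole in promoter windows of neighbouring genes in RefSeq (GRCm38.p6), and all 4 genes were under a peak of both proteins. They are shown because they hold the internal promoter that these loci share. The capitals mark first the anticodon named in the gene symbol and then a match to the B box, here the letters GGTTCNA, any 2 bases and CC. Each is given 5′ to 3′ on the strand that carries the B box.
n-TRtcg5: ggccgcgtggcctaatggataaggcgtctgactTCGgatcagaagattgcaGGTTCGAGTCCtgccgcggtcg
n-TTagt9: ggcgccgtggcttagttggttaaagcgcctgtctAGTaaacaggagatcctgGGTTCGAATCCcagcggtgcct
n-TAagc16: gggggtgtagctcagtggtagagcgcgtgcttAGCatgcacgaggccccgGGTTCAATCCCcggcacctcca
n-TVcac9: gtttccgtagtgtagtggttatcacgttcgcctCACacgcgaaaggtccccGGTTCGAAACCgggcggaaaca
The anticodon began at base 33 to 35 of each gene and the B box at base 51 to 53. The arginine gene n-TRtcg5 (chr7:79466419-79466491) lies within Polg, which encodes the catalytic subunit of the mitochondrial DNA polymerase, and its peaks had a total signal of 1134 for CHD7 and 2580 for SOX2. The total signal is the authors' sum of coverage over a peak, on a scale of its own in each list. The threonine gene n-TTagt9 (chr7:35234770-35234843) had 588 and 4340, the alanine gene n-TAagc16 (chr13:21222586-21222657) 619 and 1525, and the valine gene n-TVcac9 (chr13:23446142-23446214) 1471 and 4692, in the order CHD7 and SOX2. For scale, the median total signal of a peak was 651 over the whole CHD7 list and 997 over the whole SOX2 list, so the CHD7 peaks of n-TTagt9 and n-TAagc16 were below their list's median and the other 6 peaks were above.

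A leucine gene, n-TLaag4 (chr7:120917517-120917598), lies 180 bases from the start of Polr3e, which encodes a subunit of RNA polymerase III itself. The RefSeq promoter window of Polr3e (chr7:120917528-120917827, plus strand) takes in 71 of the 82 bases of this tRNA gene, shown in capitals.
Polr3e promoter window: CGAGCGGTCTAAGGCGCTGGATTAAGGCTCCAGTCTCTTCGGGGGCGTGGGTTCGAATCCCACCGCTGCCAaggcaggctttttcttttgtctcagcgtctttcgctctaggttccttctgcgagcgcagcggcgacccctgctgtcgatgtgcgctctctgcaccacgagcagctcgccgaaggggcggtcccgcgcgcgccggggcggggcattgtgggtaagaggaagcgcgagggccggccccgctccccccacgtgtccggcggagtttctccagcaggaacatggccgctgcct
A CHD7 peak with a total signal of 515 and a SOX2 peak with 2053 overlapped this tRNA gene and reached past the start of Polr3e, so the peak of the tRNA locus and that of the coding gene are the same here. The B box letters were found on either strand in 261 of 32619 promoter windows of 300 bases (0.80%), 7 of which held part of a tRNA gene. Of the 254 windows with these letters outside tRNA loci, 18.1% (interval 13.6 to 23.4) were under a CHD7 peak and 30.7% (25.1 to 36.8) under a SOX2 peak, against 20.6% and 34.2% of 32297 windows without them. Promoter windows within a tRNA locus were under a CHD7 peak in 51 of 68 cases (75%) and under a SOX2 peak in 59 (86.8%).

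About every other tRNA locus had a CHD7 peak, from a list of 33035 peaks. More had a SOX2 peak, from a longer list of 155548. At least 1 base of a CHD7 peak fell in 206 of 408 loci (50.5%, exact 95% binomial interval 45.5 to 55.4), where 16.7% of windows of the same reach at protein-coding gene ends and 3.73% of genome tiles of 2072 bases held one. SOX2 peaks fell in 260 loci (63.7%, 58.9 to 68.4), against 36.8% of gene-end windows and 15.1% of tiles. Both proteins had a peak in 192 loci (47.1%, 42.1 to 52.0), against 14.7% and 2.47%. The share of tRNA loci was thus 3.03 times that of gene ends for CHD7 and 1.73 times for SOX2. The gene-end windows pool both ends of each gene, because the gene table gave no strand. Of the shorter RefSeq promoter windows described above, 20.7% were under a CHD7 peak and 34.3% under a SOX2 peak. A ratio to gene starts alone, in windows of the same reach, was not computed. Loci of other small RNA genes, extended in the same way, lay lower than tRNA loci. CHD7 peaks were at 9.28% of 1228 microRNA loci, 5.97% of 1340 small nucleolar RNA loci and 7.88% of 1003 small nuclear RNA loci. SOX2 peaks were at 30.5%, 33.1% and 17.2% of them, and both proteins at 7.98%, 4.93% and 7.18%, in the same order. The intervals cover the counting error of the number of loci only and treat loci as independent. Neighbouring loci can share a peak, so the intervals are too narrow. Sequence copies of tRNA genes can be near-identical, and the sources used here do not say how reads that map to several copies were treated.

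**Figure D1:**
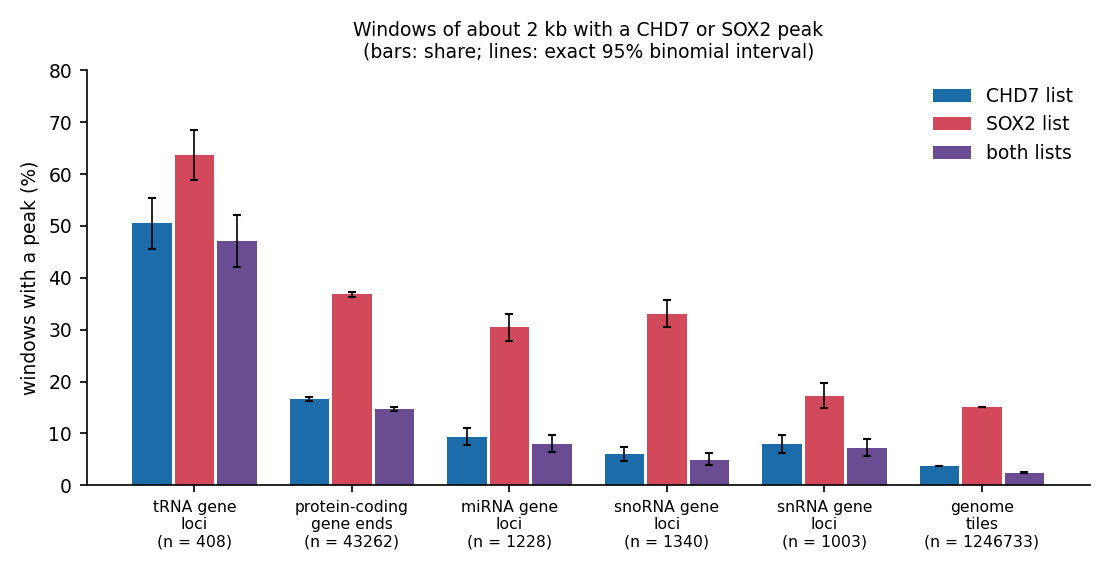
Share of windows (percent, y axis) with a CHD7 peak, a SOX2 peak or both, for tRNA loci, protein-coding gene ends, other small RNA loci and genome tiles; lines are exact 95% binomial intervals and n is the number of windows. The tRNA loci stand at 50.5%, 63.7% and 47.1%, above the bars of every other kind of window for the same list.

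The peaks lay mostly over the tRNA genes themselves, more so for CHD7 than for SOX2. A CHD7 peak overlapped the tRNA gene in 163 of the 206 loci with one (79.1%), and a SOX2 peak did so in 182 of 260 (70.0%). A peak over several genes counts at each of them. Counted once per peak, 110 CHD7 peaks lay over a tRNA gene and 25 beside one, and 126 and 85 SOX2 peaks did so. The CHD7 peaks at these loci were also wider, with a median of 1150 bases against 850. A wider peak in a locus covers the gene more readily, and the part of width in this difference was not tested. In bins of 100 bases, peak cover was highest in the bin beside the middle of the gene, where 41.4% of loci were under a CHD7 peak and 46.3% under a SOX2 peak. At 1 kb from the gene these shares were 19% and 25.5%, and at 2 kb 10.54% and 19.7%. The mean from 5 to 10 kb away was 8.59% for CHD7 and 14.1% for SOX2, so the highest bin was 4.82 and 3.28 times this local level. The authors' region of maximum signal lay within 200 bases of the middle of a tRNA gene in 68 of 135 CHD7 peaks (50.4%) and in 75 of 211 SOX2 peaks (35.5%).

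**Figure D2:**
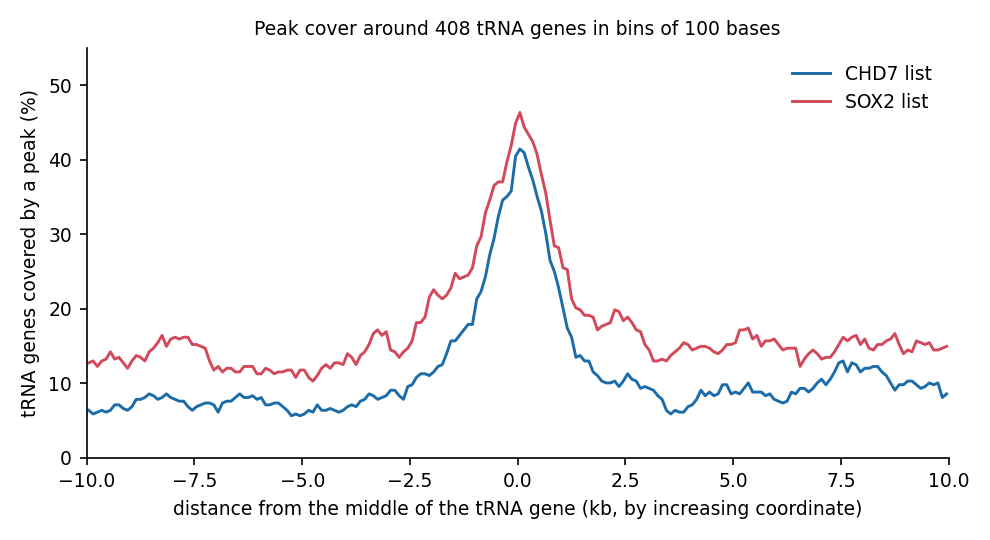
Share of the 408 tRNA loci under a CHD7 or SOX2 peak (percent, y axis) in bins of 100 bases by distance from the middle of the tRNA gene (x axis). Cover is highest beside the gene, at 41.4% for CHD7 and 46.3% for SOX2, and falls to means of 8.59% and 14.1% from 5 to 10 kb away.

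CHD7 at a tRNA locus came almost always with SOX2, and less so the reverse, in lists of 33035 and 155548 peaks. Of the 206 loci with CHD7, 93.2% also had SOX2, while 73.8% of the 260 loci with SOX2 also had CHD7. Among windows at protein-coding gene ends, 6347 of 7219 with CHD7 also had SOX2, a share only somewhat lower. The reverse differed more, as 6347 of 15917 gene-end windows with SOX2 also had CHD7. These shares depend on list length, and the SOX2 list was also cut by signal to the length of the CHD7 list. CHD7 was then at 206 tRNA loci, SOX2 at 196 and both at 175, so the share of SOX2 loci with CHD7 was the larger. In 184 of the 192 loci with both (95.8%) a CHD7 and a SOX2 peak overlapped. CHD7 alone was found at 14 loci, SOX2 alone at 68 and neither at 134. The loci were served by 135 distinct CHD7 peaks, of which 117 shared a base with a SOX2 peak (86.7%, 79.7 to 91.9), against 65.3% of all CHD7 peaks. When the regions of maximum signal had to share a base, 34 of 135 were shared (25.2%, 18.1 to 33.4), against 19.8% of all CHD7 peaks. The share by overlap of whole peaks was above that of all peaks in each class of signal, by more than the counting interval in the middle class only. Among the strongest 10% of the CHD7 list, 26 of 26 peaks at tRNA loci were shared (from 86.8% up) against 89.9% of all peaks of that class. In the next class, down to the median, 61 of 62 were shared (from 91.3% up) against 76.0%, and in the weaker 50% of the list 30 of 47 were shared (48.5 to 77.3%) against 52.0%. From the SOX2 side, 119 of 211 peaks at tRNA loci shared a base with a CHD7 peak (56.4%), against 14.7% of all SOX2 peaks. Of the 90 SOX2 peaks at tRNA loci in the strongest 10% of their list, 80 were shared (88.9%, 80.5 to 94.5) against 58.4% of that class.

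Within their own lists the peaks at tRNA loci tended to be strong and wide, more so for SOX2. A window meets wide peaks more often than narrow ones, and total signal is summed over a peak. Peaks at other kinds of window were not ranked, so only the whole list is set beside these. The CHD7 peaks had a median percentile of total signal of 70.7 (quartiles 39.1 and 87.2). Of them, 26 (19.3%) were in the strongest 10% of the list and 47 in the weakest 50%. Their median width was 1150 bases, against 950 in the whole list. The SOX2 peaks had a median percentile of 84.1 (64.3 and 96.3), and 90 (42.7%) were in the strongest 10%, 17 of them in the strongest 1%. Their median width was 850 bases against 650. SOX2 peaks over a tRNA gene had a median percentile of 93.3, and those in a locus but beside the gene 72.5. Up to 5 tRNA genes lay under a single peak in either list, and 37 CHD7 peaks covered 2 or more tRNA genes.

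The strongest overlapping pairs, ordered by the poorer of both ranks of total signal, stood at 10 tRNA genes in 4 places. On chromosome 3, a histidine and an asparagine gene, n-THgtg9 (chr3:96458070-96458141) and n-TNgtt13 (chr3:96459138-96459211), shared a CHD7 peak of total signal 7064, rank 195 of 33035, and a SOX2 peak of 19793, rank 142 of 155548. The neighbouring pair of the same cluster, n-THgtg7 (chr3:96452495-96452566) and n-TNgtt11 (chr3:96451425-96451498), had 6472 for CHD7, rank 223, and 21318 for SOX2, rank 127. Both stand near BC107364, and the latter pair lies inside it. The highest CHD7 rank of any tRNA locus, 93, belonged to an alanine and a valine gene on chromosome 13, n-TAagc7 (chr13:23412941-23413013) and n-TVaac5 (chr13:23413248-23413320). Their CHD7 peak (chr13:23413901-23414700) had a total signal of 10671 and the SOX2 peak 13312, rank 306. This pair of peaks began beside the tRNA genes, not over them. The last place was on chromosome 11 beside Hes7, a Notch pathway repressor of the segmentation clock, where lysine, leucine, glutamine and arginine genes (n-TKctt27, n-TLtag3, n-TQctg6 and n-TRtct4) lay in the reach of a CHD7 peak of 5374, rank 300, and a SOX2 peak of 11788, rank 396. These 4 genes were 169 to 553 bases from an end of Hes7 or Aloxe3, so gene-end peaks and tRNA peaks cannot be told apart there.

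Loci with 1 protein only were also ordered by signal. The pairs above were picked by rank from 184 loci with an overlapping pair, so their ranks are no measure for these fewer loci. By total signal, the first 5 with CHD7 and no SOX2 peak were n-TGgcc5 with 1211, n-TDgtc13 with 1193, n-TEttc5 with 824, n-TRcct2 with 615 and n-TGccc1 with 597, with ranks from 5061 to 19401 in the CHD7 list. The first 5 with SOX2 and no CHD7 peak were n-TEttc7 with 4047, n-TTtgt4 with 3225, n-TIaat9 with 2727, and n-TKctt14 and n-TPtgg6, which shared a peak of 2639. The glutamate gene n-TEttc7 (chr7:58399315-58399386) stood far from any coding gene end, the nearest being that of Atp10a at 256756 bases.

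Peaks were spread over nearly all anticodon families. Of 48 families, 44 had a CHD7 peak at 1 or more loci and 46 a SOX2 peak, and all 20 amino acids were represented for both proteins. Among the 22 families of 8 or more loci, which hold 302 of the loci, CHD7 was at over 50% of loci in 13 families and SOX2 in 18. The highest CHD7 shares were those of the histidine family His-GTG (8 of 10), the tyrosine family Tyr-GTA (8 of 10) and the alanine family Ala-AGC (9 of 13). The highest SOX2 shares were those of the glycine family Gly-GCC (13 of 14), His-GTG (9 of 10) and the tryptophan family Trp-CCA (7 of 8). By amino acid, leucine genes had CHD7 at 20 of 26 loci and SOX2 at 21, and arginine genes 16 and 19 of 24. The intervals of families of this size are wide, for His-GTG 44.4 to 97.5% for CHD7.

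**Figure D3:**
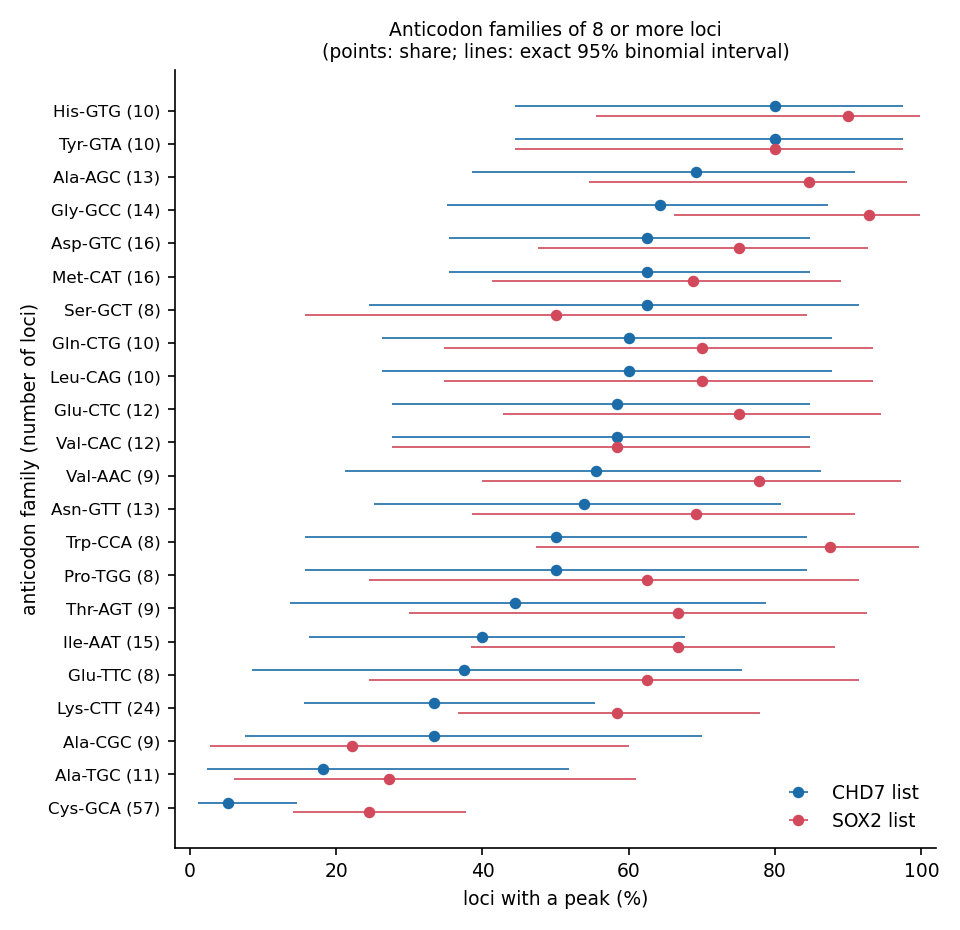
Share of loci with a CHD7 or SOX2 peak (percent) in each of the 22 anticodon families of 8 or more loci, with exact 95% binomial intervals. Cys-GCA, with 57 loci, has 5.26% for CHD7 and 24.6% for SOX2, while His-GTG has 8 and 9 of its 10 loci.

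Among the 22 families of 8 or more loci, the one with the most genes had the lowest share for CHD7. Cysteine tRNA genes with the anticodon GCA made up 57 loci, of which 3 had CHD7 (5.26%, 1.10 to 14.6) and 14 had SOX2 (24.6%, 14.1 to 37.8). Of these genes 49 lie on chromosome 6, where none had a CHD7 peak (0 of 49, interval up to 7.25%) and 9 had a SOX2 peak (18.4%). Of the 8 elsewhere, 3 had CHD7 and 5 had SOX2, and the 3 with CHD7 (n-TCgca51, n-TCgca54 and n-TCgca55) are on chromosome 11. In this family 44 loci lie over 50 kb from a protein-coding gene end, where 2.98% of genome tiles had CHD7 and 12% had SOX2. Without the family, the share of tRNA loci was 57.8% for CHD7 and 70.1% for SOX2. Low shares were also found in a pair of alanine families, Ala-TGC with 2 of 11 for CHD7 and 3 of 11 for SOX2, and Ala-CGC with 3 and 2 of 9. Ala-CGC had the lowest SOX2 share of the families of 8 or more loci (22.2%). Its CHD7 share (33.3%) was equal to that of the lysine family Lys-CTT, with 8 of 24. Most genes of both alanine families are on chromosome X, where 1 of these 12 had CHD7 and none had SOX2, against 4 and 5 of the 8 on other chromosomes. Over all 17 tRNA loci of chromosome X, 1 had CHD7 and 1 had SOX2.

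The translation start codon is read by a dedicated initiator methionine tRNA, which differs from the elongator in sequence and not in anticodon, so gene symbols do not tell them apart. All 16 genes of the family Met-CAT are therefore given together: 10 had CHD7 and 11 had SOX2, and the 10 with CHD7 all had both. The strongest CHD7 peak in the family was at n-TMcat15 (chr13:21169687-21169759), with a total signal of 1708, rank 2684. The genes n-TMcat4, n-TMcat3, n-TMcat8, n-TMcat10 and n-TMcat12 had neither. A gene for selenocysteine tRNA, whose anticodon is TCA, was not analysed here.

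tRNA genes in clusters had peaks more often than single ones. Joined at gaps of up to 10 kb, the genes formed 176 groups, 111 of them single genes and 65 of 2 or more genes that hold 297 genes. CHD7 was at 37 of the 111 single genes (33.3%, 24.7 to 42.9) and at 169 of the 297 clustered ones (56.9%, 51.1 to 62.6). SOX2 was at 54 (48.6%, 39.0 to 58.3) and 206 (69.4%, 63.8 to 74.5). A gene in a cluster can be counted through its neighbour's peak. Counting each group once, 86 of 176 had a CHD7 peak (48.9%) and 110 had a SOX2 peak (62.5%).

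Of the 22 clusters of 5 or more genes, 19 had CHD7 at 1 or more genes and all 22 had SOX2. Such a count rises with the number of genes in a cluster. Over all tRNA loci taken one by one, 50.5% had CHD7 and 63.7% had SOX2, so high counts follow from cluster size. CHD7 was at every gene in 6 of the 22 clusters. The largest of these was on chromosome 1 (chr1:171064164-171081946), where 15 genes for aspartate, glutamate, glycine and leucine tRNAs all had both proteins, under 5 CHD7 and 9 SOX2 peaks. The next cluster along (chr1:171101838-171111515) had both at 5 of 5 genes, and the one before it (chr1:171033942-171045055) CHD7 at 1 and SOX2 at 2 of 5. The other clusters with CHD7 at every gene were chr3:96451425-96464043 and chr3:96497781-96501518 with 5 genes each, and chr11:69037003-69041897 and chr11:69110465-69125248 with 7 genes each. The last of these, beside Hes7, Aloxe3 and Per1, had SOX2 at 6 of 7. The first of the chromosome 11 clusters lies by Aurkb and Ctc1 and holds 7 genes of 7 families. The remaining chromosome 3 cluster (chr3:96332740-96351237) had CHD7 at 4 and SOX2 at 2 of 5.

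Chromosome 13 held 105 tRNA genes and 8 of the clusters, with neighbours such as the histone gene H4c8 and the butyrophilin genes Btn1a1 and Btn2a2. CHD7 was at 55 of the 105 (52.4%) and SOX2 at 77 (73.3%). Cluster by cluster along the chromosome, CHD7 was at 5 of 9, 1 of 10, 11 of 15, 1 of 6, 4 of 6, 11 of 14, 3 of 6 and 7 of 8 genes. SOX2 was at 9, 3, 11, 5, 5, 12, 6 and 6 of them. Close neighbours thus differed: the cluster chr13:21160785-21172942 had SOX2 at all 9 genes, and the cluster chr13:21234045-21279768, the next one of this size, had neither protein at 6 of 10. The clusters on chromosomes 5, 17 and 19 had CHD7 at 3 of 5, 3 of 7 and 7 of 8 genes and SOX2 at 5, 6 and 7. The 3 clusters of chromosome 6, with 9, 22 and 10 genes, all Cys-GCA, had no CHD7 peak, and SOX2 was at 2, 6 and 1 genes.

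**Figure D4:**
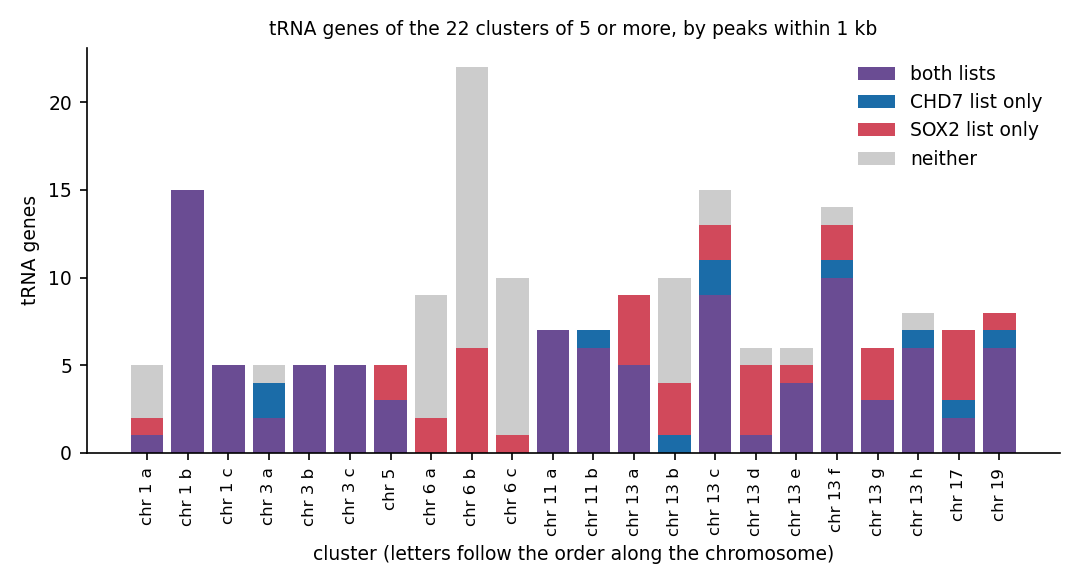
Number of tRNA genes (y axis) with peaks of both lists, the CHD7 list only, the SOX2 list only or neither within 1 kb, in each of the 22 clusters of 5 or more genes in order along the chromosomes (x axis). All 15 genes of the second chromosome 1 cluster have both, and the 3 chromosome 6 clusters have no CHD7 peak.

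The share of tRNA loci with a peak fell with distance from the nearest end of a protein-coding gene. Up to 1 kb away, 44 of 49 loci had CHD7 (89.8%) and 46 had SOX2 (93.9%), against 15.7% and 35.9% of genome tiles at that distance. From 1 to 5 kb, 38 of 59 had CHD7 (64.4%) and 45 had SOX2 (76.3%), against 5.52% and 21.9%. From 5 to 50 kb, 121 of 227 had CHD7 (53.3%) and 154 had SOX2 (67.8%), against 3.27% and 15.8%. Over 50 kb, 3 of 73 had CHD7 (4.11%, 0.856 to 11.5) and 15 had SOX2 (20.5%), against 2.98% and 12%, and no locus had both. Both proteins were at 43, 36, 113 and 0 loci, from the nearest class to the farthest, against 13.6%, 3.97%, 2.09% and 1.77% of tiles. The Cys-GCA family made up 44 of these 73 loci. Without it, 3 of 29 far loci had CHD7 (10.3%) and 5 had SOX2 (17.2%), and the class from 5 to 50 kb had CHD7 at 121 of 219. The ratio of tRNA loci to tiles was 5.73, 11.7, 16.3 and 1.38 for CHD7 and 2.62, 3.48, 4.28 and 1.72 for SOX2, in the same order of distance.

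**Figure D5:**
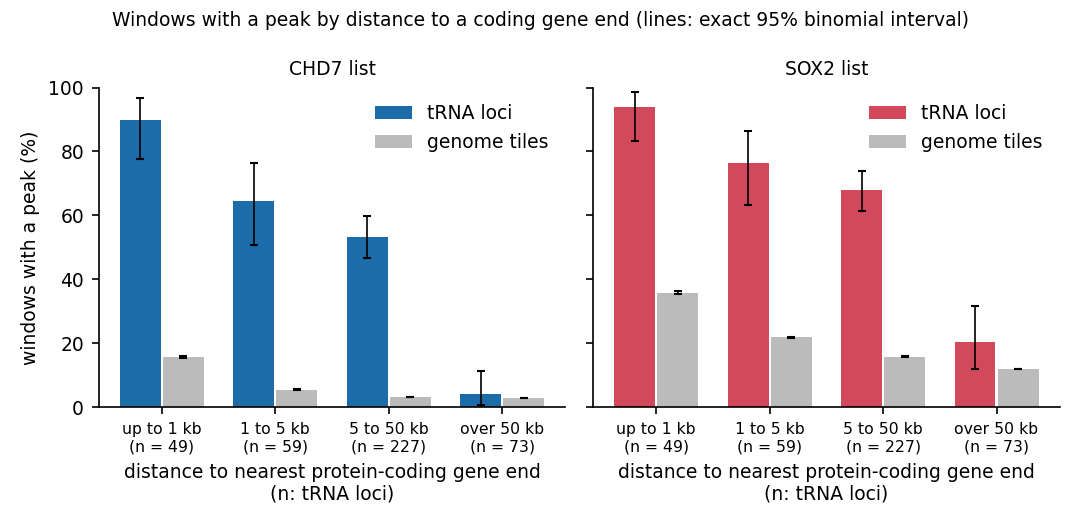
Share of tRNA loci and of genome tiles with a peak (percent, y axis) by distance to the nearest protein-coding gene end (x axis), for CHD7 and SOX2, with exact 95% binomial intervals. For tRNA loci the CHD7 share is 89.8% up to 1 kb, 53.3% from 5 to 50 kb and 4.11% over 50 kb.

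A few loci differed from most of their distance class and are named here after their values were seen. The 3 far loci with CHD7 were the glycine genes n-TGccc5 and n-TGccc1 on chromosome 3 and the alanine gene n-TAcgc4 on chromosome X. Their total signals were 519, 597 and 455, all below the list's median. The glycine genes lay 57198 and 50807 bases from a coding end, not far past the limit of 50 kb. The far share of 4.11% had an interval that held the 2.98% of tiles. The loci within 1 kb of a coding end that had no CHD7 peak included n-TScga2 by Smarcc2, n-TKctt17 by Psma3, n-TGccc7 by Mettl26 and n-TAtgc1 by Tceal3, and n-TScga2 and n-TAtgc1 had no SOX2 peak either. Loci inside a protein-coding gene had CHD7 in 15 of 34 cases and SOX2 in 19. Loci whose nearest coding gene was a histone gene had CHD7 in 10 of 16 (62.5%, 35.4 to 84.8) and SOX2 in 12 (75%, 47.6 to 92.7). Over all tRNA loci the shares were 50.5% and 63.7%.

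Other genes that RNA polymerase III transcribes were counted in the same way. The 5S ribosomal RNA, a part of the large ribosomal subunit, is transcribed from a tandem array on chromosome 8, and all 48 of its annotated copies had both proteins. These copies lay under 5 CHD7 and 13 SOX2 peaks, among them the strongest peak of the CHD7 list (chr8:123537301-123575650, total signal 143270). Of the 13 copies elsewhere none had CHD7 and 1 had SOX2. The array is a repeat, so the same limit on reads that map to several copies holds for it. Among 9 genes for other such RNAs, 6 had CHD7 and 8 had SOX2. Rn7s1 and Rn7s2, for the RNA of the signal recognition particle, had CHD7 peaks of 3698 and 3001 and SOX2 peaks of 22256 and 12755. Rn7sk, whose RNA holds back the elongation factor P-TEFb, had 1052 and 6040. Rmrp, Rpph1 and Vaultrc5 also had both, Rny1 and Rnu6 had SOX2 only, and Rny3 had neither.

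Protein-coding genes that serve tRNA were counted by peaks within 1 kb of either gene end, a measure on which 31.1% of 21631 protein-coding genes had CHD7, 60.3% had SOX2 and 28.6% had both. Of 36 genes for RNA polymerase III, its factors and regulators, 14 had CHD7 (38.9%, 23.1 to 56.5), 26 had SOX2 (72.2%, 54.8 to 85.8) and 14 had both. The strongest by rank was Gtf3c6, a subunit of TFIIIC, with a summed end signal of 9323 for CHD7 and 12873 for SOX2. It was followed by 3 genes for polymerase subunits, Polr3k with 3402 and 7712, Polr3g with 1649 and 10732, and Polr3gl with 3047 and 4721. Of the genes with neither, Crcp, Gtf3c2 and Gtf3c5 come first in the alphabet. A list of 26 genes held 21 for aminoacyl-tRNA synthetases, which load tRNAs with amino acids, 3 for auxiliary proteins of the synthetase complex (Aimp1, Aimp2 and Eef1e1) and 2 for selenocysteine synthesis (Pstk and Sepsecs). Of the 26, 13 had CHD7 (interval 29.9 to 70.1%) and 23 had SOX2 (88.5%, 69.8 to 97.6), and of the 21 synthetase genes 10 had CHD7 (47.6%, 25.7 to 70.2) and 18 had SOX2 (85.7%, 63.7 to 97.0). Fars2 had 1385 and 6920, Cars 1166 and 4369, Yars 1225 and 3401 and Qars 724 and 3050, and Aars, Eprs and Rars had neither. Of 47 genes for tRNA processing and modification, 21 had CHD7, 35 had SOX2 and 18 had both. Nsun2, a tRNA methyltransferase, had 2273 and 9676, Rpp38, a subunit of RNase P, 1908 and 8621, and Qtrt2, a subunit of the enzyme that inserts queuine, 1817 and 6627. Elp2, of the Elongator complex, had 1662 and 6861, and Cdkal1, Elac2 and Elp3 had neither.

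Over the whole series the CHD7 list held 33035 peaks and the SOX2 list 155548, and the peaks at tRNA loci were 0.409% and 0.136% of them. The number of reads behind a peak cannot be read from the lists. The labelled tissue was checked by peaks at the ends of marker genes, which show protein at a gene and not its expression, and are to be read against the shares over all protein-coding genes, 31.1% for CHD7 and 60.3% for SOX2. Of 12 otic epithelium markers 7 had CHD7 and 9 had SOX2, and all 4 periotic mesenchyme markers had both. Of 3 markers each, neural crest had 1 and 2, blood 1 and 2, and endothelium 0 and 2, in the order CHD7 and SOX2. With so few genes, the SOX2 counts in particular tell these cell types apart little. The part of other cell types in the peaks at tRNA loci was not tested.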

How the data were processed

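CUT&Tag was run on E10.5 otocyst cells with antibodies against CHD7 or SOX2, 1 library each. Per the submitters' processing notes, Bowtie2, deepTools, SEACR and mm10 were used. Not given in the sources used here are their versions and settings, the use of the control and the treatment of reads that map to several places. The deposited peak lists give the coverage signal of each peak, summed and at its maximum. Its scaling is unknown, as is the depth of reads, so signal was compared only within a list. Peak borders follow bins of 50 bases.

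Genes came from a RefSeq table (GRCm38.p6), without strand, so either end of a coding gene was used. The anticodon was read from the gene symbol. A locus had a protein when it shared at least 1 base with a peak. Shares have exact (Clopper-Pearson) 95% intervals, and backgrounds were gene-end windows, other small RNA loci and genome tiles, without stretches of over 500 kb that held neither a peak nor a gene. No test was made, since each antibody had 1 library. Named loci were the 10 strongest overlapping pairs, the first 5 with 1 protein only, all clusters of 5 or more genes, the 3 highest and 3 lowest families of 8 or more loci per protein, up to 4 genes with both and 3 with neither per pathway list, and the methionine genes; other loci and genes were named after their values were seen. Members, lists and measures were chosen with earlier results of these data known. Alternatives were other extensions, stricter peak sets, other overlap rules, joined or omitted loci and other joining distances. The counting was tested on simulated data. Counting ran in Python 3.11.15 with pandas 2.3.3 and numpy 2.4.6, intervals in scipy 1.17.1, and plots in matplotlib 3.10.9.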

Additional observations from a re-analysis of the deposited data

How the results depend on the processing

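Of 63 recomputed values over 10 results, 31 moved by less than their interval and 32 by more. Among the 31 is the CHD7 share with a shortened SOX2 list, which could not move because the CHD7 list was unchanged. Shares of tRNA loci are given for CHD7, SOX2 and both, in that order. The tRNA gene with no extension gave 39.95%, 44.6% and 32.4%. With 500 bases on each side SOX2 was at 58.1%, and with 2 kb SOX2 was at 71.1% and both at 53.4%. The stronger 50% of each list gave 38.7%, 57.1% and 37.7%, where gene-end windows had 10.3% and 27.6% for CHD7 and SOX2. The 10000 strongest peaks of each gave 32.1%, 34.6% and 27.5%, with 7.08% and 9.04% at gene ends. With as many SOX2 peaks as CHD7 peaks, taken by signal, SOX2 was at 48.0%, against 18.7% at gene ends. Asking for the region of maximum signal in the locus gave 56.6% for SOX2 and 39.0% for both, and asking for 50% of the peak 57.1% and 41.2%. Overlapping loci joined into 270 gave 41.5%, 55.9% and 37.4%. Without loci within 1 kb of a coding end CHD7 was at 45.1% and both at 41.5%, and without those within 5 kb the shares were 41.3%, 56.3% and 37.7%. Omitting Cys-GCA genes, an alternative chosen after seeing the data, gave 57.8%, 70.1% and 53.8%. The share of CHD7 peaks at tRNA loci on a SOX2 peak was 25.2% when the regions of maximum signal had to share a base, 96.6% among the stronger 50% and 75.6% with the shortened SOX2 list. In the synthetase list CHD7 was at 23.1% with the stronger 50%, and the count of synthetase genes only was also chosen after seeing the data. No paired analysis was possible because each antibody had 1 library and no test was made.

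The main limits are the single library per antibody, the unknown read depth and the unknown treatment of reads that map to several tRNA copies. Loci are not replicates and neighbours share peaks, so intervals cover counting error only. How far signal without a primary antibody reaches these loci was not tested. A missing peak says that none was listed, not that the protein was absent.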
